A study of Mus musculus with 4 samples.

Results

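The cytosolic ribosomal proteins are the protein components of the ribosomes that translate nuclear messages in the cytoplasm. They were taken from the deposited gene table by symbol, as Rpl or Rps with a number and an optional final a, l, x or y, or as Rplp0, Rplp1, Rplp2 or Rpsa, without the Rps6 kinases and without named pseudogenes. This gave 82 genes of 24940 in the table, 50 of the large subunit and 32 of the small subunit. They were measured by RNA sequencing in mouse pancreatic islets, the small organs within the pancreas that secrete insulin and glucagon.

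There were 2 groups of 2 libraries. Control replicates 1 and 2 came from non-transgenic mice, and knockdown replicates 3 and 4 from mice with Tafazzin knocked down, where Tafazzin (gene symbol Taz) is the mitochondrial transacylase that remodels cardiolipin. All mice were males aged 3 to 4 months on a low-fat chow diet, and each library pooled about 300 islets of 2 to 3 mice. The design compares the transcriptomes of the 2 genotypes. Since the controls carried no transgene, Tafazzin depletion and the presence of a transgene cannot be told apart. A spread over 2 pools also does not separate mouse from library.

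Ribosomal protein genes are expressed in every cell type, and the cell makes their products in matched amounts. Their messages typically begin with a C followed by an uninterrupted run of C and T (U in the RNA), called a 5′ terminal oligopyrimidine tract or TOP, through which the growth kinase mTOR controls their translation. In mammals the family has left many processed pseudogenes, intron-less copies of the messages scattered over the genome, and several of the genuine genes carry small nucleolar RNAs in their introns.

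Values are given in units of 1 read per 10000000 library reads, with no division by gene length. The libraries held 68823160 and 81073502 reads (controls) and 76680282 and 78630832 reads (knockdown). Between 55470964 and 65175895 reads per library were counted in the table, most of them in 13 very high entries, and between 4320910 and 4962798 in all other entries. The 13 entries averaged over 25000 units, and the insulin genes Ins1 and Ins2 were kept with the other entries whatever their level. A single read was worth 0.123 to 0.145 units. Taz itself read 23.1 and 15.4 units in the controls, against 13.8 and 12.7 units in the knockdown libraries. Each knockdown value lay below each control, but the log2 fold change of -0.65 ± 0.25 (SE, relative to the median of all tested genes) did not pass the test (limma, Benjamini-Hochberg adjusted p = 0.529). The smallest adjusted p for Taz with all 4 libraries was 0.122, from edgeR on recovered reads.

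The starts of the genes are shown first, because the TOP tract is the sequence feature that the family is known for. For 56 of the 82 members, the RefSeq start site (GRCm38.p6) was that of the deposited table. The windows below hold 25 bases, 10 before the start site and 15 from it onwards, 5′ to 3′ on the gene's strand, and capitals mark the longest run of C and T. The first 5 belong to members with the highest test statistics for knockdown against control that had a window.
Rpl13: TTTCgcctgattttgattggcgttt
Rpl12: agcaggatccgTCTTTTCggctttc
Rpl7a: CTCTTCTTTCTTTCTCCagcagccg
Rpl22: CCTgggaaaagcaatagctggccga
Rplp2: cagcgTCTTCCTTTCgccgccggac
The next 4 belong to members with the lowest statistics.
Rps12: tcatgcggccaccgccggCCTTTTC
Rps16: TTCTgtcgtgacgtagcactcaatg
Rpl23: gTCCggtcacgtggctgagtgggcg
Rpl5: cgtcgCTTgcgtgctggtggtgcta
The last 4 are those of the 6 members with the highest level per coding length that had a window.
Rpl13a: cctgcgacaagaCCTCCTCCTTTCC
Rpl4: TTTCCTgtgggagcagccgggtaga
Rplp0: cgggTTTCgaggaccgcctggttct
Rpl41: gggccggCTCggaagtgacgacacc

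These windows lie at chr8:123102340-123102364 (Rpl13), chr2:32961702-32961726 (Rpl12), chr2:26910797-26910821 (Rpl7a), chr4:152325716-152325740 (Rpl22) and chr7:141447641-141447665 (Rplp2), all on the plus strand. The window of Rps12 is at chr10:23787195-23787219 on the minus strand, that of Rps16 at chr7:28350679-28350703 on the plus strand, that of Rpl23 at chr11:97782425-97782449 on the minus strand, and that of Rpl5 at chr5:107900518-107900542 on the plus strand. Those of Rpl13a and Rpl4 are at chr7:45128731-45128755 (minus) and chr9:64173377-64173401 (plus), and those of Rplp0 and Rpl41 at chr5:115559457-115559481 (plus) and chr10:128549154-128549178 (minus). A run of at least 6 C or T bases on the gene's strand, anywhere in the window, was found in 30 of the 56 member windows (53.6%). Of all 32851 promoter windows of the same length, members included, 8031 (24.4%) held one. The run did not have to begin with a C or at the start site, so these counts do not say which members have a TOP. The letters CTTTC, on either strand, stood in 13 of the 56 (23.2%) and in 6.06% of all windows. This motif can lie inside the C and T run, as it does in Rpl7a, Rplp2 and Rpl13a. Members with a run were not set apart in the comparison of the genotypes: the 27 tested members with a run had a median log2 fold change of 0.16 and the 25 without had 0.21.

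Read counts per gene, not divided by length, spanned a wide range. Rpl4, a protein that lines the exit tunnel for the nascent chain, had the highest value, with 300.2 and 245.5 units in the controls, against 323.4 and 326.0 in the knockdown libraries. Rplp0, the scaffold of the acidic stalk that recruits elongation factors, followed with 208.7 and 181.8 units against 282.1 and 241.6. At the other end, Rpl39l and Rpl10l had no read in any library. Of the 82 members, 11 averaged over 100 units and 34 under 10 units, and the 6 highest (Rpl4, Rplp0, Rpl8, Rpl41, Rps3 and Rpl13a) held 38.2% of all member units. The median tested member averaged 23.2 units, and 15 members had fewer than 100 reads over the 4 libraries, so that counting error weighs heavily on the low end.

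**Figure D1:**
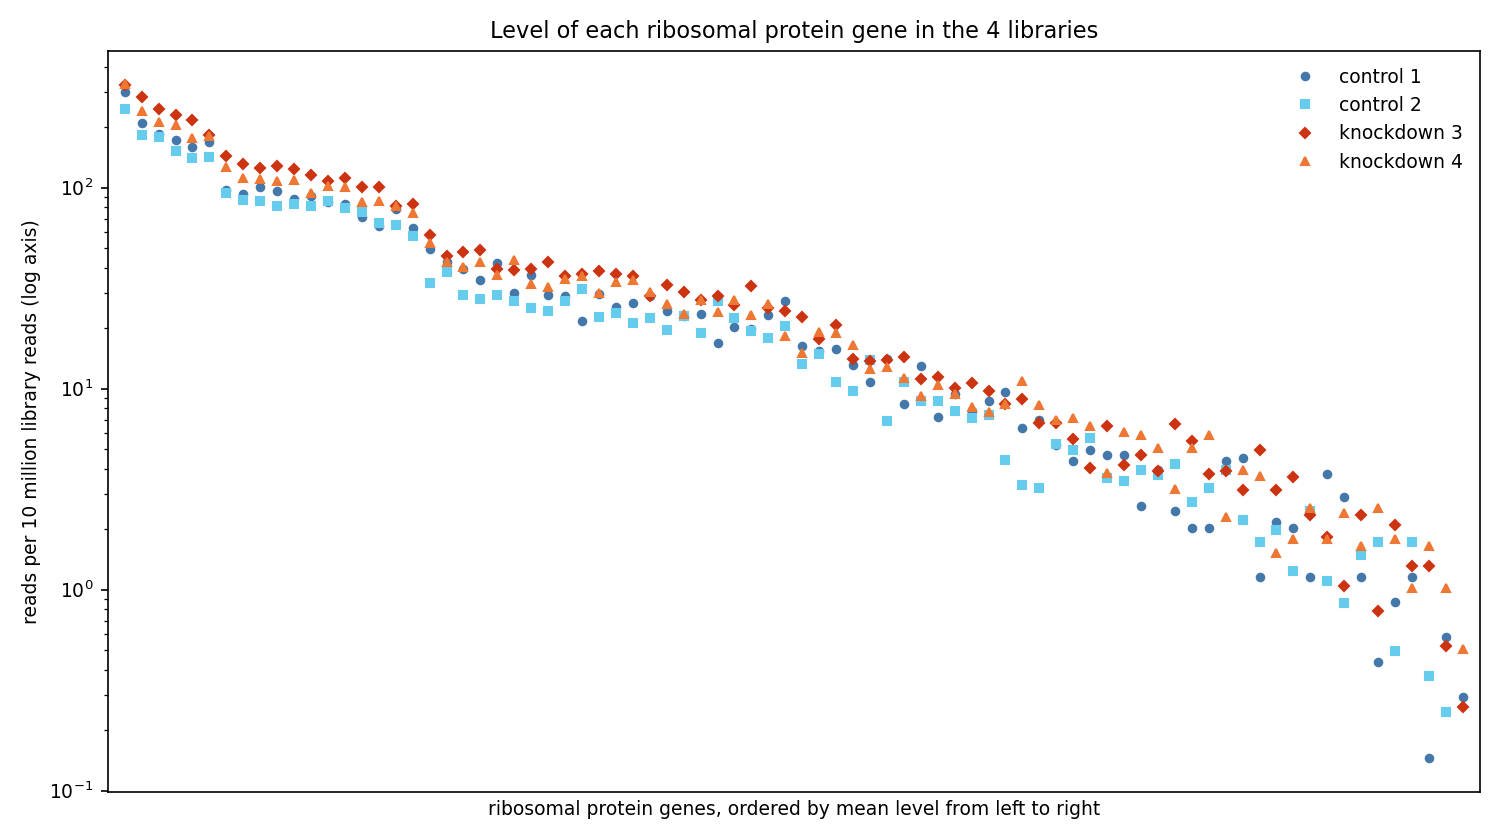
Level of each ribosomal protein gene in reads per 10000000 library reads (log axis), 1 mark per library, ordered by the mean over the 4 libraries; values of 0 are not drawn, and Rpl39l and Rpl10l, at 0 throughout, are left out. The diamonds and triangles of the knockdown libraries lie above the circles and squares of the controls for all 18 members that average at least 50 units, and the marks mix among the low members.

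Per kb of coding length, the 6 highest members were Rpl41, Rplp1, Rpl13a, Rpl8, Rplp0 and Rpl4. Rpl41, the smallest ribosomal protein, with a coding sequence of 78 nt, reached 2431 units per kb, a value that rests on this short divisor. Rplp1, an acidic stalk protein, had 299.5 units per kb, Rpl13a 275.1, Rpl8, a protein near the peptidyl transferase centre, 265.9, Rplp0 239.6 and Rpl4 237.1. The deposited length equals the genomic span of the gene in 99.5% of table entries, introns included, so intron reads can be part of every such level.

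The level per coding length went with how much of the coding sequence was shared with other genes. For each of the 80 members with a coding sequence in GENCODE M21, every 50-base stretch was looked up in the annotated transcripts of all other genes, on both strands. A stretch shared with at least 1 pseudogene was found in 77 of the 80, and the median member shared stretches with 8 pseudogenes. Rpl7a shared them with 121. In 28 members every stretch of the coding sequence occurred in another gene as well.

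The 14 members with under 50% of their stretches shared had a median of 173.6 units per kb of coding length, the 22 members from 50% to under 90% had 62.8, the 16 from 90% to under 100% had 40.1, and the 28 fully shared members had 8.22. Across genes, Spearman's rho between the shared percentage and the level per kb was -0.55 (80 genes), -0.74 without the l forms (76 genes) and -0.63 with stretches of 100 bases (79 genes). All these points come from the same 4 libraries. Rpl4 shared 20.2% of its stretches and had 237.1 units per kb, whereas Rps23, a decoding-site protein that was fully shared, had 2.01. Rpl41 was an exception, fully shared at 50 bases and the highest of all per kb. How reads that map to several places were treated is not given in the sources used here, and its part in these levels was not tested. A low value of a fully shared member is therefore a low count in this table and not a measured scarcity of its message.

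**Figure D2:**
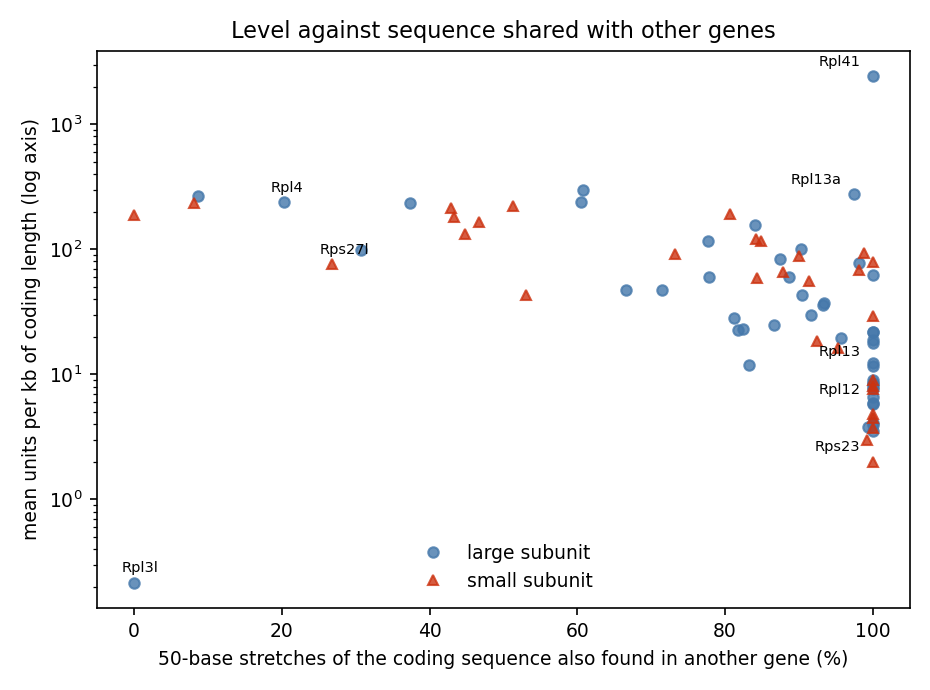
Mean level of each member in units per kb of coding length (log axis) against the percentage of its 50-base coding stretches that also occur in another annotated gene; circles are large-subunit and triangles small-subunit genes, and Rpl39l and Rpl10l, at 0, are not drawn. Members under 50% shared lie around a median of 173.6 units per kb, apart from Rpl3l near 0, and the fully shared members on the right have a median of 8.22.

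Ribosomal protein genes together took more reads in the knockdown libraries than in the controls, and 1 of them passed the test. Summed over the 82 members, the controls held 3074 and 2728 units and the knockdown libraries 3916 and 3520. The table's reads outside the 13 high entries include those of Ins1 and Ins2. Of all these reads, the members took 0.460% (95% Wilson interval 0.454 to 0.467) and 0.512% (0.505 to 0.519) in the controls. They took 0.619% (0.612 to 0.626) and 0.558% (0.551 to 0.564) in the knockdown libraries. Both knockdown shares lay above both control shares, and the intervals, which cover counting error only, did not overlap. The gap between the 2 controls was about as wide as that between control 2 and knockdown 4. In bulk tissue, a different mix of cell types and a different amount of RNA per cell cannot be told apart.

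Fold changes were fitted with limma on log2(units + 1) for the 13531 genes that averaged 1 unit or more and spanned 200 nt or more. The members entered with 77 genes, and Rpl39l, Rpl10l, Rpl3l, Rps27 and Rps23 fell below the filter. Over all tested genes the median change was 0.17 (log2) with the deposited scaling and -0.01 after median-ratio scaling. Every log2 fold change given has this median subtracted, while the p-values test the change without that shift. A gene is said to be called at a Benjamini-Hochberg adjusted p under 0.05.

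On this scale the members had a median of 0.18, with quartiles of 0.08 and 0.27, and 63 of 77 (81.8%) lay above the median of all genes. All tested genes had quartiles of -0.16 and 0.18. The 78 mitochondrial ribosomal proteins, which build the separate ribosome inside mitochondria, had a median of 0.02, with 43 of them above 0 on this scale and none called. By limma with Benjamini-Hochberg adjustment, 1 of the 77 cytosolic members (1.30%) was called higher, against 2.49% of all tested genes, and 0 were called lower, against 0.0443%. At an unadjusted p under 0.05, 11 members (14.3%) were higher, against 9.88% of all genes, and 0 lower, against 0.466%. The called share of the members was thus no larger than that of all genes, although most members lay on the same side of the median.

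The knockdown libraries both lay above both controls in 51 members (66.2%), against 34.9% of all tested genes, and both below in 1 member, Rps12, against 4.49%. After median-ratio scaling, which evens out the middle of the distribution in each library, this held for 31 members (40.3%), against 20.4% of all genes, and the reverse for 2, Rps12 and Rps4l, against 20% of all genes. The share that did not overlap was larger among members with many reads. All 18 members of at least 50 units had both knockdown values above both controls, against 24.8% of the 2238 tested genes of at least 50 units. After scaling 13 of the 18 did, against 11.1%. Of the 37 tested members under 20 units, 15 did so with the deposited scaling and 7 after scaling. Among all tested genes of any level the shares were 34.9% and 20.4%.

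**Figure D3:**
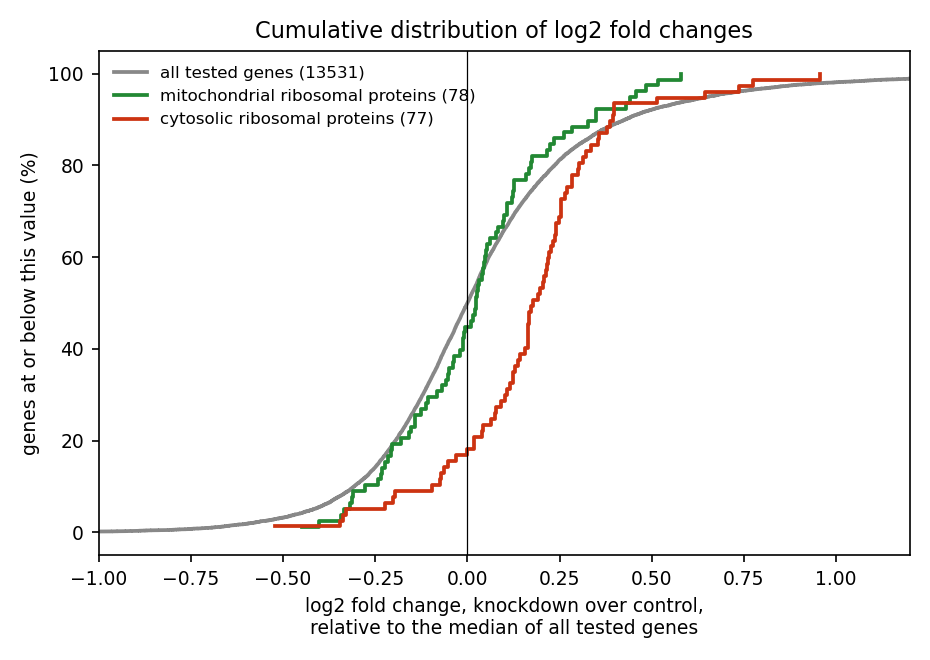
Cumulative distribution of the log2 fold change (knockdown over control, relative to the median of all tested genes) for all 13531 tested genes, 78 mitochondrial and 77 cytosolic ribosomal protein genes. The curve of the cytosolic members is steep and lies to the right, with a median of 0.18 against 0.02 for the mitochondrial members, and does not reach farther right than the curve of all genes.

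The offset between the genotypes was larger than the differences within a genotype for 3 of the 4 pairs of libraries. Relative to all tested genes, the median member was 0.11 (log2) higher in control 2 than in control 1, and 0.10 lower in knockdown 4 than in knockdown 3. Between the genotypes, it was 0.33 and 0.19 higher in knockdown 3 and 4 than in control 1, and 0.17 and 0.07 higher than in control 2. All 4 differences between genotypes were above 0. The one between control 2 and knockdown 4 was smaller than either difference within a genotype. Their SD was 0.106. With the deposited values, knockdown 3 was the highest library in 47 of the 77 members and knockdown 4 in 19, while control 2 was the lowest in 53 and control 1 in 19. After scaling, knockdown 3 was still the highest in the largest number, 41, but control 1 was the lowest in 41 and control 2 in 21. The scaled sums of the tested members were 2963.6 and 3216.9 units in the controls, against 3633.7 and 3330.1 in the knockdown libraries.

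**Figure D4:**
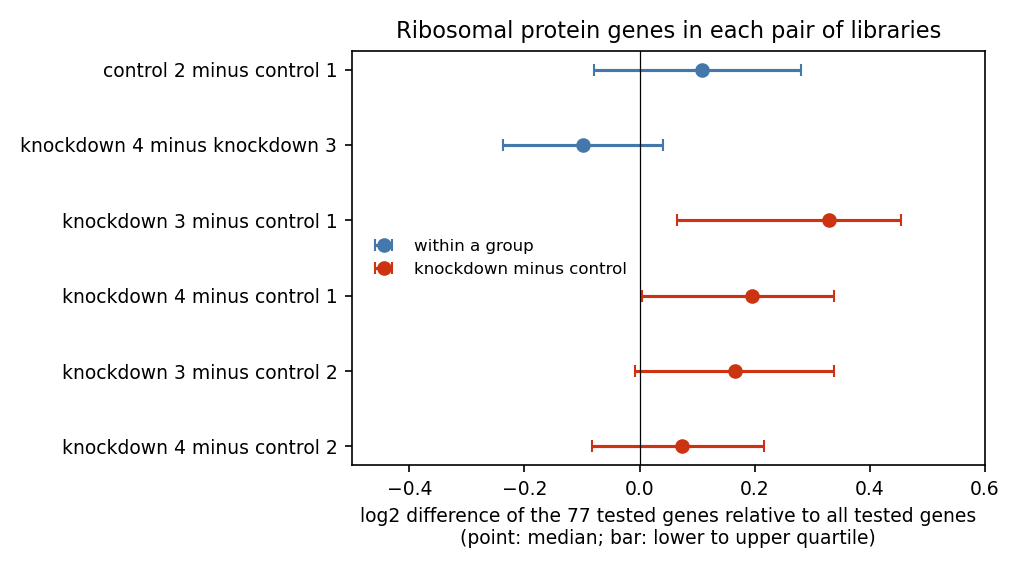
Log2 difference of the 77 tested members between each pair of libraries, relative to all tested genes; points are medians and bars run from the lower to the upper quartile. The pairs within a genotype lie at 0.11 and -0.10, and those between genotypes at 0.07 to 0.33, and the bars of the 4 pairs between genotypes all overlap that of control 2 minus control 1.

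The call count depended on single libraries and on the scaling. With control 1 left out, the median change of all tested genes rose from 0.17 to 0.30 (log2) at the deposited scaling. The p-values carry this shift, while the member median relative to all genes fell from 0.18 to 0.125. Without control 1, 20 members (26.0%) were called higher by limma, against 9.36% of all tested genes. These 20 included Rpl4, Rplp0, Rplp1, Rplp2, Rpl41, Rps3 and Rps14, all of them but Rplp2 above 100 units on average. Without control 2, 3 were called, against 2.67% of all genes. Without knockdown 3 or knockdown 4 none was, against 0.207% and 2.39% of all genes. After median-ratio scaling limma called no member higher, against 1.12% of all genes. edgeR on recovered reads also called none, against 1.29%, and neither did DESeq2, against 0.606%. At an unadjusted p under 0.05, 10, 9 and 3 members were higher in these 3 fits.

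Among the large-subunit proteins, the median log2 fold change of the 47 tested genes was 0.20, and 39 lay above the median of all genes. The called member was Rpl13, a large-subunit protein (chr8:123102350-123105242, plus strand, mm10). It read 6.39 and 3.33 units in the controls, or 44 and 27 reads, and 8.87 and 10.9 units in the knockdown libraries, or 68 and 86 reads. The means were 4.86 ± 2.17 units (SD, n = 2) and 9.90 ± 1.46 units. The groups did not overlap, and Rpl13 rose by a log2 fold change of 0.77 ± 0.29 (SE, limma Benjamini-Hochberg adjusted p = 0.0427). With median-ratio scaling the adjusted p was 0.245, with edgeR 0.257 and with DESeq2 0.906. In limma Rpl13 lost the call on leaving out control 2, knockdown 3 or knockdown 4, but not on leaving out control 1. The log2 fold change was then 0.52, 0.92, 0.62 and 1.02, in that order. The whole coding sequence of Rpl13 is shared, with stretches found in 15 pseudogenes, and reads of Rpl13 and of its copies cannot be told apart by these stretches.

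Rpl12, which anchors the stalk base to the ribosomal RNA (chr2:32961712-32964045, plus strand), had the largest log2 fold change of the family. Its values were 1.16 and 1.73 units in the controls, against 4.96 and 3.69 in the knockdown libraries, from 8, 14, 38 and 29 reads. The groups lay well apart, but the change of 0.96 ± 0.38 did not pass (limma adjusted p = 0.0889). Rpl38, known for its part in selective translation during mouse body patterning (chr11:114668543-114672331, plus strand), read 2.03 and 2.71 against 5.48 and 5.09 units, with a log2 fold change of 0.74 ± 0.34 (limma adjusted p = 0.170). Both are fully shared with other genes at 50 bases and rest on few reads. Without the mean-variance trend, limma called Rpl12, Rpl13 and Rpl38, against 3.9% of all genes.

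Rpl7a and Rpl22 had the next highest statistics and rest on more reads. Rpl7a, a large-subunit protein (chr2:26910807-26913311, plus strand), had 26.7 and 21.2 units in the controls, against 36.5 and 34.8 in the knockdown libraries, a log2 fold change of 0.40 ± 0.25 (limma adjusted p = 0.324). Rpl22, a large-subunit protein also known from T-cell development (chr4:152325726-152334082, plus strand), had 34.6 and 27.9 against 49.0 and 42.7 units, a log2 fold change of 0.38 ± 0.25 (limma adjusted p = 0.353). In both, each knockdown library exceeded each control, by more than the controls differed from each other. Of the 2, Rpl22 shares 30.8% of its stretches with other genes and Rpl7a 93.4%.

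The lowest large-subunit statistics belonged to Rpl23 and Rpl5. Rpl23, a large-subunit protein that can bind the p53 regulator Mdm2, had 12.9 and 8.63 units in the controls, against 11.2 and 9.16 in the knockdown libraries. Rpl5, which carries the small ribosomal RNA of the large subunit and can bind Mdm2 too, had 4.94 and 5.67 units against 4.04 and 6.49. The groups overlapped in both. Fam69a, on the opposite strand, overlaps the end of Rpl5 and had a mean of 5.11 units, against 5.29 for Rpl5.

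The 3 P proteins form the stalk that engages elongation factors. Rplp2 (chr7:141447651-141451359, plus strand) had 15.7 and 10.9 units in the controls, against 20.6 and 18.9 in the knockdown libraries, a log2 fold change of 0.40 ± 0.25 (limma adjusted p = 0.357). Rplp1 had 96.0 and 81.3 against 128.3 and 107.6 units and a log2 fold change of 0.24 ± 0.24 (limma adjusted p = 0.597). Rplp0 had a log2 fold change of 0.26 ± 0.23 (limma adjusted p = 0.541). None passed. In all 3 the knockdown libraries lay above the controls before and after median-ratio scaling. The same held for 66.2% and 40.3% of the tested members, and for 34.9% and 20.4% of all tested genes.

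The other highly read large-subunit genes did not pass the test either. Rpl41 read 172.6 and 151.7 units in the controls, against 229.8 and 204.5 in the knockdown libraries, a log2 fold change of 0.25 ± 0.23. Rpl8 read 184.8 and 179.1 against 246.2 and 213.0 units (0.16 ± 0.23), and Rpl4 had a log2 fold change of 0.09 ± 0.22. Rpl13a, also known as part of an interferon-controlled translation silencer, read 168.8 and 141.5 against 181.9 and 181.2 units (0.07 ± 0.23). All 4 had both knockdown values above both controls, as did all 18 members of at least 50 units. After scaling the groups of Rpl8 overlapped.

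Among the small-subunit proteins, the median log2 fold change of the 30 tested genes was 0.17, and 24 lay above the median of all genes. None was called. Rps3, which sits at the mRNA entry channel, had 159.5 and 140.6 units in the controls, against 216.5 and 176.8 in the knockdown libraries, a log2 fold change of 0.22 ± 0.23 (limma adjusted p = 0.628).

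Rps12, a small-subunit protein (chr10:23785183-23787209, minus strand), had the lowest log2 fold change of the family. It read 4.36 and 3.95 units in the controls, against 3.91 and 2.29 in the knockdown libraries, from 30, 32, 30 and 18 reads, so that knockdown 3 differed little from control 2. The change of -0.52 ± 0.34 did not pass (limma adjusted p = 0.848). Rps16 had 3.78 and 1.11 against 1.83 and 1.78 units, and Rps29 had 1.16 and 1.73 against 1.30 and 1.02 units. Both overlapped between the groups, and the high value of Rps16 was in control 1 alone.

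Some members are named as second forms of another ribosomal protein. Rpl39l and Rpl10l, forms known from testis, had 0 reads in each library, and Rpl3l, the heart and skeletal muscle form of Rpl3, had 2, 0, 2 and 4 reads. Rpl3 itself, which lies at the peptidyl transferase centre, had 19.8 and 19.2 units in the controls, against 32.3 and 23.2 in the knockdown libraries. Rps27l, a form of Rps27 known to be induced by p53, read 20.3 and 22.4 against 26.2 and 27.7 units, a log2 fold change of 0.16 ± 0.25 (limma adjusted p = 0.784). Rps27 read 0.581, 0.247, 0.522 and 1.02 units. All stretches of Rps27 are shared and 26.8% of those of Rps27l, and its entry holds the same values as the overlapping gene Rps27rt, so the 2 forms cannot be ranked from this table.

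Rps4x, the X-linked form of Rps4, read 62.9 and 57.7 units in the controls, against 82.9 and 75.0 in the knockdown libraries, a log2 fold change of 0.22 ± 0.24 (limma adjusted p = 0.653). Rps4l had 27.3 and 20.5 against 24.3 and 18.2 units, with a log2 fold change of -0.33 ± 0.25 (limma adjusted p = 0.920). No coding sequence was found in GENCODE M21 for Rps4l or for Rpl32l. Rps4l lies within Tmtc1 on the opposite strand, whose mean was 75.7 units, and Rpl32l, at 2.03, 1.23, 3.65 and 1.78 units, lies within Map7, with a mean of 64.6 units. Although the libraries were made with a directional kit, the table gave no sign of counting by strand: in all 50 cases of an entry of at least 20 units nested in an entry of the other strand, the outer entry held as many units or more in each of the 4 libraries. Reads of a host gene and of the form nested in it therefore cannot be told apart here. The 4 X-linked members (Rps4x, Rpl39, Rpl10 and Rpl36a) all had both knockdown values above both controls. So did 66.2% of the tested members and 34.9% of all tested genes. After scaling, 3 of the 4 did, against 40.3% of the tested members and 20.4% of all tested genes. The other members lie on 18 autosomes, with 14 on chromosome 7 and 1 to 7 on each of the rest.

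Several members were read at under 10% of the level of the median tested member. Rpl36a had 0.872 and 0.493 units in the controls, against 2.09 and 1.78 in the knockdown libraries, from 6, 4, 16 and 14 reads, a log2 fold change of 0.64 ± 0.48 (limma adjusted p = 0.607). Rps27a, which is made as a fusion with ubiquitin, had 1.16 and 2.47 against 2.35 and 2.54 units. Rps13 had 0.436 and 1.73 against 0.782 and 2.54, Rpl17 2.18 and 1.97 against 3.13 and 1.53, Rpl24 2.91 and 0.863 against 1.04 and 2.42, and Rpl23a 1.16 and 1.48 against 2.35 and 1.65 units. Of these 6, Rpl36a and Rpl23a had both knockdown values above both controls, against 34.9% of all tested genes. After scaling Rpl36a alone did, against 20.4%. Rps16, Rps29 and Rpl32l, given above, were also under 10% of that level, and their groups overlapped before and after scaling. Rps23, below the filter, had 1 and 3 reads in the controls, against 10 and 13 in the knockdown libraries. Across genes, the log2 fold change went neither with the shared percentage (Spearman's rho -0.06, 75 genes) nor clearly with the level (0.13, 77 genes).

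Overlapping entries touch many members. Of the 82, 34 overlap another table entry, 13 of them another gene, and 21 hold small nucleolar RNA entries in their span, which guide chemical modification of ribosomal RNA. These 30 nested entries summed to 10.7 units against 3309.4 units for the members. The largest was in Rps3, where Snord15b averaged 7.16 units, followed by Rpl13a, with 0.686 units over 4 nested entries, and Rpl32, with 0.415. Rpl32 itself read 90.4 and 81.2 units in the controls, against 115.5 and 94.2 in the knockdown libraries (log2 fold change 0.12 ± 0.24). The 44 tested members that overlap nothing had a median log2 fold change of 0.19, and 37 lay above 0. None of them was called, since Rpl13 holds Snord68 and Mir7079.

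Ribosomal proteins that the symbol rule leaves out had a smaller median change than the members. Of 7 tested, none was called, and their median log2 fold change was 0.07. Rack1, a scaffold on the head of the small subunit, read 159.2 and 160.6 units in the controls, against 242.4 and 200.2 in the knockdown libraries, a log2 fold change of 0.29 ± 0.23 (limma adjusted p = 0.457). Its groups did not overlap, before or after scaling.

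The genes that work with the ribosome were read from lists of known function. None of 46 translation factors was called. Their median log2 fold change was 0.06, and 31 lay above the median of all genes. The most abundant, Eef1a1, which delivers aminoacyl-tRNA and is itself a TOP message, read 1354 and 1198 units in the controls, against 1600 and 1560 in the knockdown libraries (log2 fold change 0.15 ± 0.21). Eif2b1, a subunit of the exchange factor for initiation factor eIF2, had 13.1 and 10.2 against 18.0 and 16.3 units (0.36 ± 0.26), and Eef1e1, a scaffold of the tRNA synthetase complex, 7.26 and 5.18 against 10.7 and 7.88 units (0.35 ± 0.28). Of 21 tested TOP messages outside the family, none was called, their median was 0.12, and 16 lay above that of all genes.

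Ribosome biogenesis factors held the pathway gene with the lowest adjusted p. Of 52 tested, 2 were called higher and none lower, against 2.49% and 0.0443% of all tested genes. Their median log2 fold change was 0.09. Fbl, the methyltransferase fibrillarin of the nucleolus (chr7:28169748-28179269, plus strand), had 2.03 and 2.10 units in the controls, against 7.30 and 7.50 in the knockdown libraries, from 14, 17, 56 and 59 reads. The groups differed by far more than the libraries within them, and Fbl rose by a log2 fold change of 1.29 ± 0.33 (limma adjusted p = 9.28e-04). With median-ratio scaling the adjusted p was 0.0308, with edgeR 0.0355 and with DESeq2 0.184. By limma it was 0.102 without knockdown 3, and between 0.0955 and 0.703 where scaling was combined with leaving out any 1 library.

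Nhp2, a core protein of the particles that make pseudouridine in ribosomal RNA, had 6.39 and 3.82 units in the controls, against 12.9 and 8.90 in the knockdown libraries. It rose by a log2 fold change of 0.81 ± 0.28 (limma adjusted p = 0.0264), which became 0.193 after scaling and 0.188 with edgeR. The adjusted p was 0.344 without control 2 and 1 without knockdown 3. Nhp2 overlaps Rmnd5b, whose mean was 13.5 units. Ncl, nucleolin, the most abundant of the list, had 158.2 and 141.4 against 196.1 and 170.2 units (log2 fold change 0.12 ± 0.23), and its groups overlapped after scaling.

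Of 22 tested regulators of ribosomal protein synthesis, 1 was called higher, against 2.49% of all tested genes. The median log2 fold change was 0.02. Myc, a transcription factor that drives ribosomal protein and biogenesis genes, had 8.43 and 8.14 units in the controls, against 20.3 and 12.7 in the knockdown libraries. It rose by a log2 fold change of 0.72 ± 0.26 (limma adjusted p = 0.0347). The adjusted p was 0.201 after scaling, 0.168 with edgeR, 0.0570 without control 2 and 1 without knockdown 3. Larp1, which binds TOP messages downstream of mTOR, had 151.3 and 114.0 against 144.8 and 156.0 units (log2 fold change 0.03 ± 0.23), and the groups overlapped. Trp53, the p53 gene, had 17.6 and 19.2 against 29.2 and 26.8 units (0.41 ± 0.25, limma adjusted p = 0.304).

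Markers of other cell types moved between the same libraries. Summed stellate cell and fibroblast markers were 156.1 and 154.8 units in the controls, against 479.9 and 361.9 in the knockdown libraries. Of these 15 markers, 11 were called higher, against 2.49% of all tested genes. Endothelial markers summed to 197.8 and 170.0 against 390.3 and 300.3 units (6 of 12 higher), and duct markers to 941.5 and 994.7 against 1841 and 1219 (6 of 13 tested higher). Macrophage markers summed to 74.5 and 62.7 against 89.6 and 75.0 units. Of 10 tested, 2 were called higher, against 2.49% of all tested genes, and 4 lay above the median of all genes. None of 8 markers of the other islet endocrine cells was called, and 3 lay above that median. Acinar markers were high in control 2 and knockdown 3, with sums of 3385, 7030, 5951 and 2767 units in the order of the replicates. None of 16 tested was called. Their log2 fold changes were all under the median of all genes, at a median of -0.46. Of the acinar list Amy2a5 was at 0 in every library, and no marker of the other lists was. Beta cell markers, insulin included, summed to 99750, 78800, 83880 and 91080 units, with none of 13 called at the deposited scaling. Their log2 fold changes were all 13 under 0, at a median of -0.39, and 2 were called lower by limma after median-ratio scaling and 2 by edgeR. Knockdown 3, the library with the most stellate, endothelial and duct signal, was also the one with the highest ribosomal protein values, and the part of these markers in the ribosomal protein values was not tested.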

How the data were processed

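Total RNA of 4 islet pools was depleted of ribosomal RNA and made into directional, randomly primed libraries, per the labels' protocols. The tools STAR 2.5.1b, HOMER 4.9 and edgeR and the build mm10 are listed, with no role or order, per the submitters' processing notes. The authors deposited 1 table whose values are a signal in reads per 10000000 library reads, although its name announces FPKM. Divided by the value of 1 read, 100% of values in every library came out whole within 0.01 reads, so whole reads were recovered. The plan had assumed a length-normalized unit. The limma test was kept, and count tests on the recovered reads are alternatives. The counted region is not given in the sources used here. The length column is the gene's genomic span, and 6099 entries overlap another.

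The 4 libraries were compared with limma 3.58.1 (R 4.3.3) on log2(units + 1) with a mean-variance trend, two-sided, with Benjamini-Hochberg adjustment over 13531 genes. Alternatives were median-ratio scaling, pseudocounts of 0.25 and 4, no filter, no trend, edgeR 4.0.16, DESeq2 1.42.0, leaving out each library, and leaving out members that overlap another entry. The fit was also run on simulated counts without an overall shift between the groups. That run does not show how the fit deals with the shift in these data. In the fit to the 4 libraries the prior degrees of freedom were infinite, so the trend over all genes replaced each gene's own spread. The log scale understates fold changes of low genes. In that fit, p-values and SEs therefore rest on the spread between pools of genes at a similar level, not on each gene's own spread. With 2 pools a group, they cover these pools only.

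Named genes are Taz, the called members, the 6 highest and 6 lowest statistics, the 6 highest per coding kb, second forms, members under 10% of the median, the 3 with most nested small RNA signal, and of each pathway list the most abundant gene and the 2 with the largest statistics. Some genes that this rule or a small count would name are not reported here. Others are named as examples chosen after their values were seen. Members and lists were chosen with earlier results of these data known. Marker lists (acinar, duct, stellate and fibroblast, endothelial, macrophage, beta, other endocrine) are described by counts and sums. Coding sequences were taken from GENCODE M21 for 80 members, 74 of them through the RefSeq identifier of the table. Start windows came from RefSeq promoters (61 members matched).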

Additional observations from a re-analysis of the deposited data

How the results depend on the processing

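No paired analysis was possible because the groups share no replicate number. The member median kept its sign in every alternative, between 0.11 and 0.25, and no member was called lower in any. Called higher were 0 members after median-ratio scaling, with no filter, with edgeR, with DESeq2 and among members that overlap nothing, and 3 without the trend. Of all genes, 151, 0, 528, 174 and 82 were called higher after scaling, with no filter, without the trend, with edgeR and with DESeq2, against 337, and 22, 0, 16, 20 and 10 lower, against 6. At an unadjusted p under 0.05, edgeR had 9 members higher, limma after scaling 10, limma with no filter 15 and DESeq2 3. Leaving out 1 library at a time, with the deposited scaling or (chosen after seeing the data) after median-ratio scaling, gave 0 to 20 members higher (20 without control 1 at the deposited scaling, at most 3 otherwise), 0 to 1266 genes higher and 0 to 68 lower. The lone library of a group is then assumed to vary as the others do. Over the named genes, 518 of these comparisons kept direction and side of the threshold, 38 lost the call, 14 gained it and 30 changed sign, all 30 on leaving out a library, and the cause was not tested. In these the log2 fold change ranged from -0.80 to 0.22 (Rps16), -0.50 to 0.10 (Rpl5), -0.060 to 0.36 (Rps27l), -0.063 to 0.70 (Rpl32l), -0.036 to 0.44 (Rpl23a), -0.31 to 0.64 (Rps27a), -0.42 to 0.78 (Rps13), -0.44 to 0.28 (Rpl17), -0.59 to 0.34 (Rpl24), -0.032 to 0.25 (Rpl32) and -0.058 to 0.095 (Larp1).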
